A study of Mus musculus with 6 samples.

Results

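Carboxylesterases are serine hydrolases that cut ester bonds, and this account concerns 10 mouse genes of the Ces1, Ces2 and Ces3 groups, chosen by name because Vascepa is itself an ester. The genes are Ces1b, Ces1c, Ces1d, Ces1e, Ces1f, Ces1g, Ces2a, Ces2c, Ces2e and Ces3a. Of these, 9 had a probe of their own among the 22180 genes the arrays name singly, with 1 probe each, and all 9 lay above the intensity filter. Ces2c was not analysed here. No probe shared between several gene symbols listed a member, so nothing was set apart on that ground.

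Liver RNA was measured on 6 arrays from male C57BL/6 mice that were 8 weeks old before 1 week of acclimatization. In the vehicle group (Control-HFD, 3 samples) vehicle was given over 7 days and a high-fat diet was then fed for 6 weeks. In the Vascepa group (Vascepa-HFD, 3 samples) the 7 days of dosing were with Vascepa, which is eicosapentaenoic acid as its ethyl ester, and the diet weeks were the same. Groups follow the samples' titles and source names, while the treatment protocol text, identical for all 6 samples, speaks of Vascepa for the vehicle samples too. Every mouse was therefore on the diet at collection, no group on another diet was analysed here, and the livers were taken after the dosing period. The replicates carry the numbers 1 to 3 in each group, and nothing in the labels ties each to its own animal, so the tests measure the spread between samples, which may be technical.

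Most of these enzymes sit in the lumen of the endoplasmic reticulum of hepatocytes, where they activate or inactivate ester drugs and also hydrolyse triglyceride and cholesteryl ester. Some, such as Ces1c in rodents, are secreted into plasma. Fatty acid ethyl esters are among the molecules that esterases of this family can cleave. The genes lie in tandem on mouse chromosome 8, Ces1b to Ces1g in one cluster and the Ces2 and Ces3 genes in another, and the copies resemble each other closely. Whether RNA of 1 copy also bound another copy's probe was not tested, so each value below is uncertain in that respect.

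No carboxylesterase gene differed between the groups beyond the spread of the arrays. All 9 had a lower mean after Vascepa, by between 0.017 and 0.40 on the log2 scale, with a median difference of −0.12. That count was 6 after quantile normalization was applied again, 7 with a small nucleolar RNA covariate and 4 with array weights. Among all 13493 genes tested the median was −0.063 and 60.1% had a lower mean. The members are among the brighter genes. Over the 7211 genes above a filter at the 75th percentile, which all 9 passed, the median was −0.14. No member passed at an adjusted p under 0.05 (limma, Benjamini-Hochberg over all genes tested, smallest adjusted p = 0.976), and none had an unadjusted p under 0.05. Limma called 0% of all genes at the adjusted threshold and 2.68% (362 genes) at the unadjusted one. Without Vascepa replicate 3, 6 of the 9 members had a lower mean and the median was −0.062, against −0.016 for all genes tested.

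**Figure D1:**
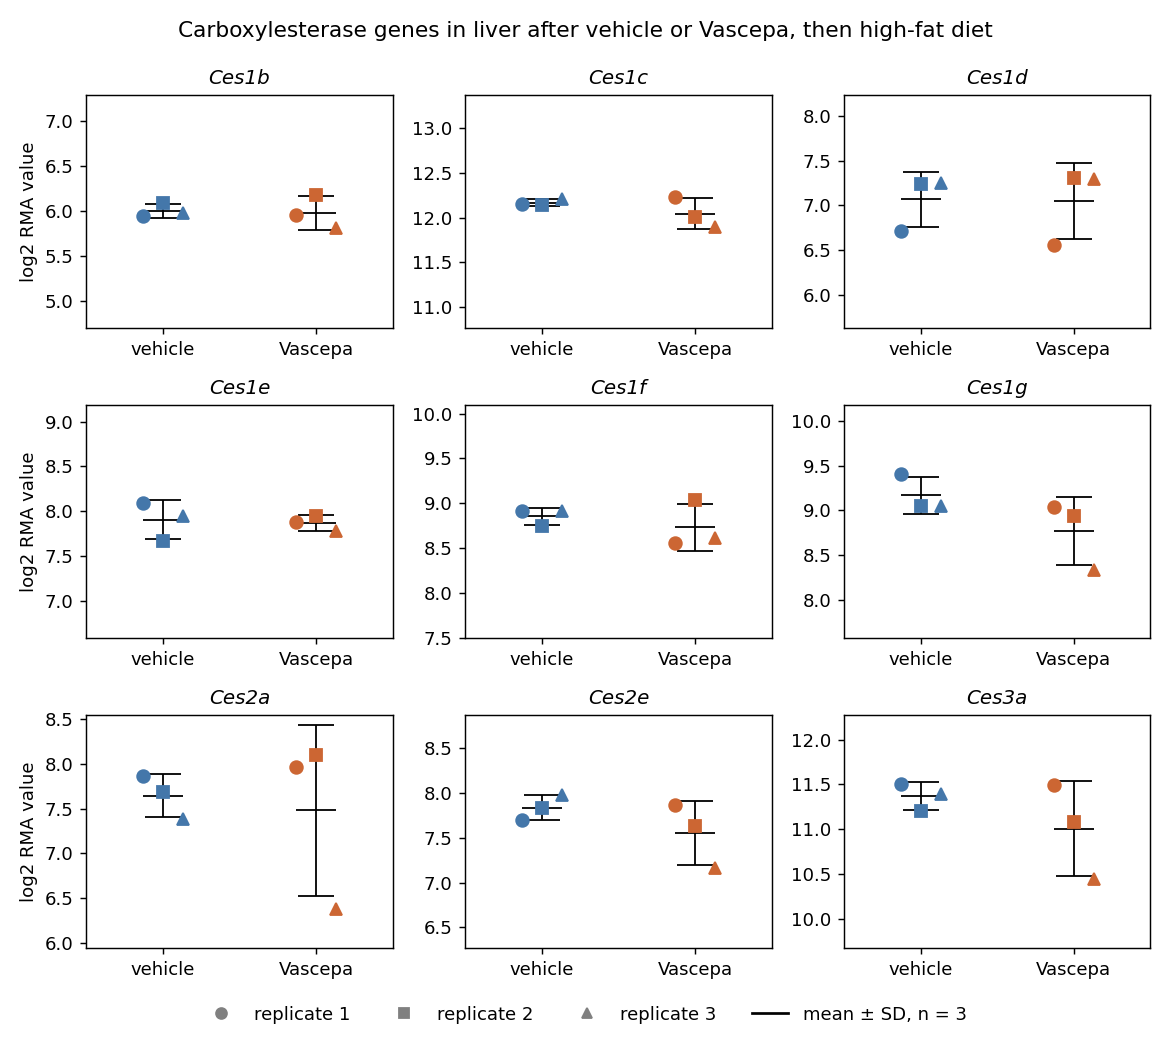
Log2 RMA values of the 9 measured carboxylesterase genes on the 3 vehicle and 3 Vascepa arrays, with the mean and SD of each group. Every panel spans the same number of log2 units. Groups overlap in all panels but that of Ces1g, and Vascepa replicate 3 is the lowest point in 6 panels, by the widest margins in Ces1g, Ces2a, Ces2e and Ces3a.

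Ces1c encodes a carboxylesterase of mouse plasma, made in the liver, and it was among the steadiest members. Its log2 level was 12.15, 12.14 and 12.21 in vehicle replicates 1 to 3, and 12.24, 12.01 and 11.89 in Vascepa replicates 1 to 3. The vehicle arrays lay within 0.071 of each other, and the Vascepa arrays spread to both sides of them. The group means were 12.17 ± 0.038 and 12.04 ± 0.17 (SD, n = 3 each), a difference of −0.12 with a 95% interval from −0.53 to 0.29. Without Vascepa replicate 3 it was −0.045.

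Ces1b, its neighbour in the cluster, read 5.94, 6.09 and 5.98 after vehicle and 5.95, 6.18 and 5.81 after Vascepa. The highest and the lowest of the 6 values were both Vascepa arrays. The difference was −0.027 ± 0.18 (SE), with an interval from −0.44 to 0.39, and it was 0.059 without Vascepa replicate 3. As a fold of Vascepa over vehicle the interval ran from 0.73 to 1.31, so equal levels were not shown.

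The upstream sequences of Ces1b and Ces1c are shown side by side because, of the members with one, these 2 were the most alike. The promoter windows of RefSeq (build GRCm38.p6) run from 250 bases before to 50 bases after the start site, and 7 of the 10 members had one, among them Ces2c. Ces1d, Ces1f and Ces3a had no entry. Aligned end to end, the windows of Ces1b and Ces1c matched at 255 of 327 columns (78.0%) and shared a run of 58 identical bases, against at most 65.0% for any other pair of the 7. Capitals mark CCAAT, the letters of the CCAAT box, and AGGTCA, a half-site of nuclear receptors, on either strand. The windows are chr8:93079891-93080190 for Ces1b and chr8:93131234-93131533 for Ces1c, both on the minus strand and written 5′ to 3′.
Ces1b: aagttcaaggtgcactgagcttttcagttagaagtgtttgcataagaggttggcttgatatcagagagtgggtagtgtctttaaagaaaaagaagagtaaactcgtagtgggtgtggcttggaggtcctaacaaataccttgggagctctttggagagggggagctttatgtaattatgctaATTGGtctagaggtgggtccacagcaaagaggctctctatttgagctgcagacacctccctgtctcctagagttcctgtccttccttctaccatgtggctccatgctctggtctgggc
Ces1c: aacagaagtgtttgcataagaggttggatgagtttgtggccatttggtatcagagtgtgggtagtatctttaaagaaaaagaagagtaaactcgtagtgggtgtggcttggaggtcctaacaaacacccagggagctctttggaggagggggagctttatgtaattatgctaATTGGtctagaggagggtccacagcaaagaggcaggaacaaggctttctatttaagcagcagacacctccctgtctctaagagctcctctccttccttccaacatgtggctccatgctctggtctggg

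Both windows hold 1 CCAAT box, on the reverse strand, at −68 from the start site of the printed window in Ces1b and −78 in Ces1c. Of the 7 members, 5 hold one within the window, against 37.4% of the 32851 RefSeq windows. The letters GTTAAT, a half-site of the hepatocyte factor HNF1, are in none of the 7 and in 7.10% of all windows. RefSeq gives Ces1b a second start site further upstream, and counted from that one the same CCAAT box lies downstream, at 10. These are matches of letters, and binding was not measured.

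Ces1d encodes a triglyceride hydrolase of the endoplasmic reticulum that supplies stored lipid for VLDL secretion. Its values were 6.71, 7.23 and 7.25 after vehicle and 6.55, 7.30 and 7.29 after Vascepa. Replicate 1 was the low array in both groups, while the other 4 arrays lay close together. The group means of 7.07 ± 0.30 and 7.05 ± 0.43 (SD, n = 3 each) differed by −0.017, with an interval from −0.64 to 0.61. The difference was 0.23 without Vascepa replicate 1 and −0.19 without vehicle replicate 1.

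Ces1e encodes egasyn, the esterase that holds beta-glucuronidase in the endoplasmic reticulum. It read 8.09, 7.67 and 7.95 after vehicle and 7.88, 7.95 and 7.78 after Vascepa. The Vascepa values all lay inside the vehicle range, and this was the only measured member whose SD was smaller after Vascepa (0.087 against 0.22). The difference was −0.036 ± 0.19 (SE), and 0.058 without vehicle replicate 1. Its partner Gusb, which encodes beta-glucuronidase, differed by 0.041 ± 0.20 (SE).

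Ces1f, a further Ces1 enzyme with triglyceride hydrolase activity, read 8.91, 8.74 and 8.91 after vehicle. On the Vascepa arrays it read 8.55, 9.03 and 8.61, on both sides of the vehicle values. The difference was −0.12 ± 0.20 (SE), with an interval from −0.58 to 0.33. Leaving out Vascepa replicate 2 gave −0.28, and leaving out replicate 1 of that group gave −0.033.

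Ces1g, an esterase linked to hepatic lipid and lipoprotein metabolism, was the only member whose groups did not overlap. It read 9.41, 9.05 and 9.05 after vehicle and 9.04, 8.94 and 8.34 after Vascepa. The gap between the groups was 0.0054, far smaller than the spread within either group, and the groups did not overlap in 8.24% of all genes tested, 5.11% lower and 3.13% higher after Vascepa. The means were 9.17 ± 0.21 and 8.77 ± 0.38 (SD, n = 3 each), 1.32-fold lower after Vascepa, and the log2 interval ran from −0.95 to 0.16 (limma, adjusted p = 0.976). Without Vascepa replicate 3 the difference was −0.18.

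The Ces1g window (chr8:93337160-93337459, minus strand) is printed because this gene had the largest mean difference of the 9, and it can be set against the Ces1b and Ces1c windows above.
Ces1g: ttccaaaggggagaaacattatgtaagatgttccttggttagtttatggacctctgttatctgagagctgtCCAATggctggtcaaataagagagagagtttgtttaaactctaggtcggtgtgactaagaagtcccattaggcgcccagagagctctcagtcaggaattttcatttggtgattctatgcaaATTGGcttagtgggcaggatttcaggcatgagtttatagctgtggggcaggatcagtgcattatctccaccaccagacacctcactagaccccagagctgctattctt

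It matched the Ces1b window at 53.1% of aligned columns. Windows of a Ces1 and a Ces2 gene matched at 43.9% to 50.5%, so this value is little above theirs. Windows of unrelated genes were not aligned. It holds a CCAAT box at −179 and another, on the reverse strand, at −58. It was also the only window of the 7 with TATAAA, at −26 on the reverse strand, letters that 13.6% of all windows hold on either strand.

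**Figure D2:**
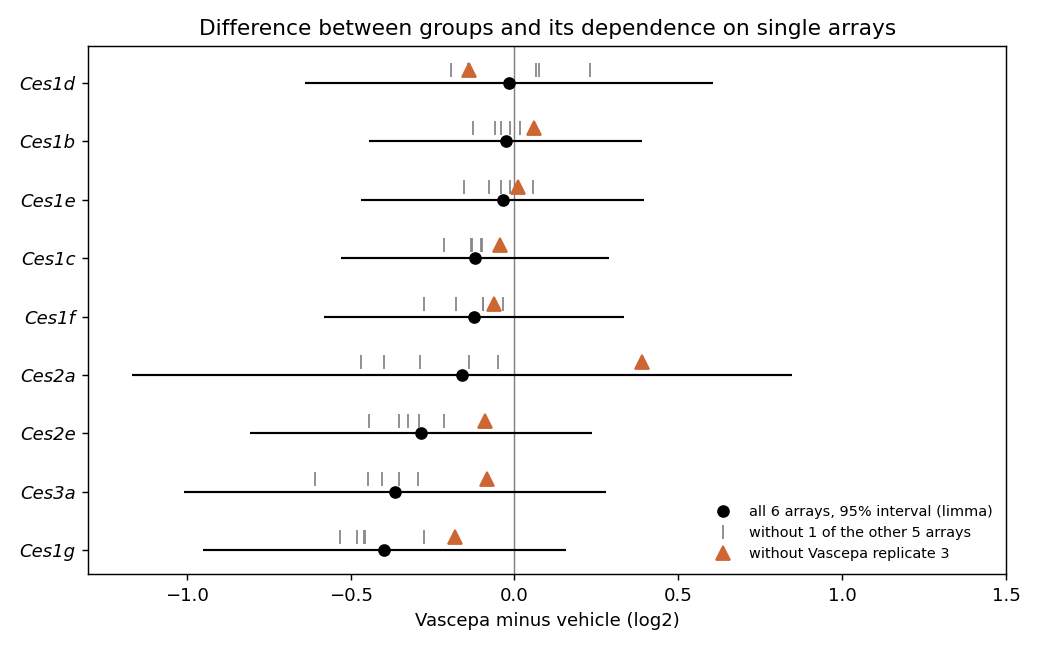
Vascepa minus vehicle (log2) for each measured carboxylesterase gene, with limma's 95% interval over all 6 arrays (black) and the same difference with 1 array left out (grey ticks, and a triangle for Vascepa replicate 3). All intervals cross 0, and without Vascepa replicate 3 Ces2a moved from −0.16 to 0.39.

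Ces2a, a Ces2 enzyme of drug hydrolysis that agonists of the pregnane X receptor (PXR) can induce, had the widest range of the members. It read 7.86, 7.68 and 7.39 after vehicle and 7.96, 8.10 and 6.39 after Vascepa. Vascepa replicates 1 and 2 lay above every vehicle array, and Vascepa replicate 3 lay below them all. The means were 7.64 ± 0.24 and 7.48 ± 0.95 (SD, n = 3 each). Their difference of −0.16 had an interval from −1.17 to 0.85, and it was 0.39 without Vascepa replicate 3, so 1 array set its sign.

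Ces2e, of the same tandem group, read 7.70, 7.83 and 7.98 after vehicle and 7.87, 7.63 and 7.16 after Vascepa. Vascepa replicate 1 lay among the vehicle values and replicates 2 and 3 below them. The difference was −0.29 ± 0.23 (SE), and −0.089 without Vascepa replicate 3.

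The windows of Ces2a (chr8:104733753-104734052) and Ces2e (chr8:104926010-104926309), both on the plus strand, are given since both genes had their lowest value on Vascepa replicate 3. That trait is not particular to them, as it held for 6 of the 9 members and 38.8% of all genes tested.
Ces2a: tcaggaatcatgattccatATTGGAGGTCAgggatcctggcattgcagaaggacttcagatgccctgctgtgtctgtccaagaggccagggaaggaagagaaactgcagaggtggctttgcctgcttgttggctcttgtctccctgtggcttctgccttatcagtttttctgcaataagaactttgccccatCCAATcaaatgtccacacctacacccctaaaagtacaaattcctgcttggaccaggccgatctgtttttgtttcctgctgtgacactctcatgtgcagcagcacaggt
Ces2e: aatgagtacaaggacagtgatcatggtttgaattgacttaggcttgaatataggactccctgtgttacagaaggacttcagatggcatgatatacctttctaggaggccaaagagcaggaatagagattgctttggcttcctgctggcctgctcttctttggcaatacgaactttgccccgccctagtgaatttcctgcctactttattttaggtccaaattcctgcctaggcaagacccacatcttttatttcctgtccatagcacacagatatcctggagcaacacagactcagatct

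They matched at 54.9% of aligned columns, where windows of a Ces1 and a Ces2 gene reached up to 50.5%. Ces2a alone of the 7 members holds AGGTCA, at −226, where it directly follows a reverse-strand CCAAT box at −231, and 16.3% of all windows hold AGGTCA. Ces2a has a further CCAAT box at −58, and Ces2e has neither motif within its window. None of the 7 holds AGGTCA repeated directly with 1, 3 or 4 bases between the copies, or TGAACT followed after 6 bases by AGGTCA, on either strand. Exact pairs are rare in windows of this length, with 13, 2, 5 and 0 of the 32851 holding each in turn.

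Ces3a encodes a Ces3-group esterase of the liver. Its values were 11.51, 11.20 and 11.40 after vehicle and 11.49, 11.08 and 10.44 after Vascepa. Only Vascepa replicate 3 stood well below the rest. The means were 11.37 ± 0.15 and 11.01 ± 0.53 (SD, n = 3 each), 1.29-fold lower, with a log2 interval from −1.01 to 0.28. Leaving out Vascepa replicate 3 gave −0.083, and leaving out Vascepa replicate 1 gave −0.61, where the unadjusted p was 0.0378 (limma, adjusted p = 0.318).

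The lowest values of the members gathered on 1 array. On Vascepa replicate 3 their median lay 0.27 below the vehicle mean, with 8 of 9 below it, while Vascepa replicates 1 and 2 lay at −0.025 and 0.044. The same median over all genes tested was −0.12 on Vascepa replicate 3, and 0.019 and −0.046 on Vascepa replicates 1 and 2. Vascepa replicate 3 held the lowest of the 6 values in 6 of 9 members, and in 38.8% of all genes tested. Ces1d was the exception, lying 0.23 above the vehicle mean there. The smallest root mean square difference between 2 members' profiles over the 6 arrays was that of Ces1g and Ces3a, 0.14, where Ces1g itself deviated from its mean by 0.32. Ces1b and Ces1f differed as little, but Ces1b itself deviated by only 0.12, so that value shows no shared pattern. The largest was that of Ces1d and Ces2a, at 0.76. In 8 of 9 members the SD was larger after Vascepa, as in 71.5% of all genes.

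**Figure D3:**
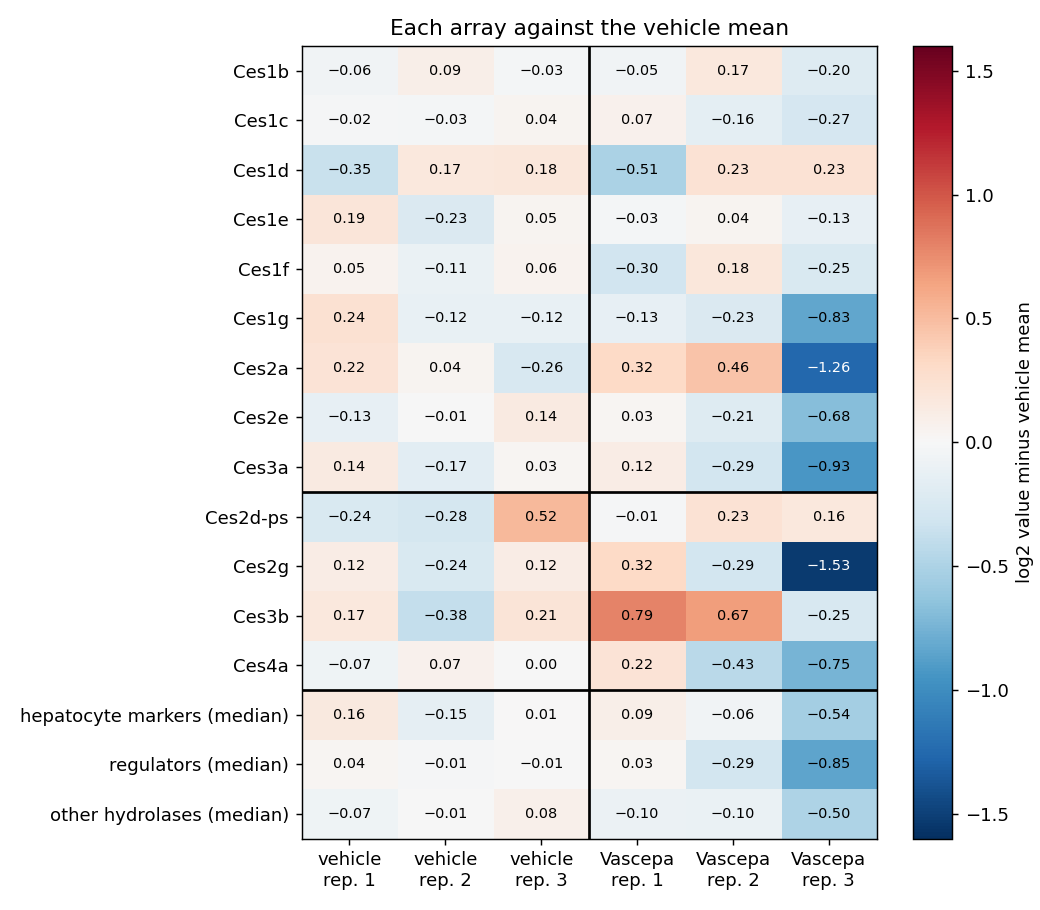
Log2 value on each array minus the vehicle mean, for the 9 members (top), the other carboxylesterase genes above the filter (middle) and the medians of 3 gene lists (bottom). The column of Vascepa replicate 3 holds the lowest cells, with −1.26 for Ces2a the lowest among the members, and in the row of Ces1d replicate 1 is low in both groups.

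That array also stood apart outside the family. Its mean correlation with the other arrays across genes was 0.938, against 0.959 to 0.973 for the others, and its mean level of small nucleolar RNA probes was 7.01, against 5.42 to 6.48. Hepatocyte markers lay 0.54 below the vehicle mean there and between −0.15 and 0.16 on the other 5 arrays (median over 9 of 10 listed genes). The mean log2 level of those 9 genes ranged from 11.60 to 11.90 after vehicle and from 11.17 to 11.97 after Vascepa. On Vascepa replicate 3 the markers moved unequally. Apoa1 moved least, at 11.75 against a vehicle mean of 11.78, and Tat most, at 10.17 against 11.89. In whole liver, fewer cells of a type and less RNA per cell cannot be told apart. Whether the quality of that array or of its RNA plays a part was not tested. The mean level of pancreatic acinar markers (3 of 7 listed genes tested) was 2.77 to 2.94 after vehicle and 3.06 to 3.31 after Vascepa. Of these 3, Clps averaged 2.51 after vehicle and 3.03 after Vascepa, and passed the filter of 2.65 only through its Vascepa values. Cpa1 and Prss2, below the filter, differed by −0.10 and 0.0087. The mean level of skeletal muscle markers (4 of 6) was 3.37 to 3.54 after vehicle and 3.67 to 3.90 after Vascepa. Kupffer cell markers (7 of 7) had means of 6.13 to 6.21 and 5.76 to 6.03, endothelial markers (7 of 7) of 6.80 to 6.90 and 6.63 to 6.83, stellate cell markers (6 of 7) of 6.66 to 6.74 and 6.11 to 6.72, and cholangiocyte markers (4 of 6) of 3.21 to 3.67 and 3.19 to 3.75. Of 6 adipocyte markers only Plin1 was tested, with Adipoq, Lep and Cidea below the filter. None of these markers passed the test. At an unadjusted p under 0.05 by limma there were 2 Kupffer cell markers, both lower after Vascepa, and 1 skeletal muscle marker, higher. The share of all genes tested at that level was 2.68%. Of the 7 Kupffer cell markers, 6 had a lower and 1 a higher mean, with differences from −0.54 to 0.061. The muscle list was mixed, with 3 tested genes higher in the mean and 1, Tnnt3, lower, at −0.12. Myh4 and Myl1, muscle markers below the filter, differed by −0.23 and −0.089. The part of any of these in the carboxylesterase values was not tested.

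The rest of the carboxylesterase family was mostly dim. Of 10 further Ces genes, 6 lay below the filter (Ces1a, Ces1h, Ces2b, Ces2f, Ces2h and Ces5a), and of the 4 tested 2 had a higher and 2 a lower mean, with none passing. The 2 higher ones include Ces2d-ps, a transcribed pseudogene, which differed by 0.13 ± 0.25 (SE). Its values were dim, from 3.15 to 3.95. Ces3b, the neighbour of Ces3a, differed by 0.40 ± 0.32 (SE), the other way from Ces3a. Its vehicle values ran from 7.95 to 8.55 and its Vascepa values from 8.08 to 9.13, with Vascepa replicates 1 and 2 above all vehicle arrays, and the difference was 0.73 without Vascepa replicate 3. Ces4a differed by −0.32 ± 0.26 and Ces2g by −0.50 ± 0.43, and without Vascepa replicate 3 these were −0.11 and 0.017.

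Regulators of these genes include nuclear receptors, and among 11 listed, Nr1i2, which encodes the drug-sensing receptor PXR, had the smallest p. It read 7.04, 7.18 and 7.02 after vehicle and 6.60, 6.54 and 5.96 after Vascepa, and the groups did not overlap. The difference was −0.71 ± 0.22 (SE), a fold of 1.64 lower, and it missed the threshold (limma, adjusted p = 0.976, unadjusted p = 0.0118 by the same fit). Without Vascepa replicate 3 it was −0.51. Nr1i3, which encodes the related receptor CAR, differed by −0.024 ± 0.35. Nfe2l2, of the antioxidant response, differed by −0.36 ± 0.26, or −0.12 without Vascepa replicate 3. In all, 9 of the 11 regulators had a lower mean, with a median of −0.36, which was −0.053 without Vascepa replicate 3.

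Targets of PXR and CAR outside the family did not pass either. Of 13 tested, 10 had a lower and 3 a higher mean, with a median of −0.20, or −0.058 without Vascepa replicate 3. Abcc3, an export pump for conjugates, differed by −0.68 ± 0.45 (SE), and by −0.15 without that array. Slco1a4, an uptake transporter, differed by −0.32 ± 0.22, with −0.16 without vehicle replicate 1 and −0.51 without vehicle replicate 2. Without Vascepa replicate 3 its difference was larger, at −0.38.

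Other ester and lipid hydrolases of the liver mostly had lower means as well, 18 of 22 tested, with none passing and a median of −0.22. The groups did not overlap in 3 of the 22, all lower after Vascepa, where the share of all genes was 5.11%. Mgll, the monoglyceride lipase, read 6.52, 6.55 and 7.03 after vehicle and 6.49, 6.10 and 6.05 after Vascepa, a difference of −0.49 ± 0.22 (SE). Abhd6, a further monoglyceride hydrolase, differed by −0.51 ± 0.23. These 2 genes differed by −0.41 and −0.34 without Vascepa replicate 3, while the list's median went to −0.10.

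Among genes of retrieval to the endoplasmic reticulum, 3 of 4 listed were tested, with 2 lower in the mean. Kdelr1, a receptor that returns escaped proteins to the endoplasmic reticulum, differed by −0.49 ± 0.22 (SE), or −0.35 without Vascepa replicate 3, and its groups did not overlap. Kdelr2, of the same receptor family, differed by −0.41 ± 0.31, or −0.071 without that array. Of 5 VLDL assembly genes, 3 had a lower and 2 a higher mean, and Tm6sf2 and Surf4, both of lipoprotein export, differed by −0.42 ± 0.27 and −0.31 ± 0.25, and by −0.23 and −0.12 without Vascepa replicate 3. None of these passed.

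**Figure D4:**
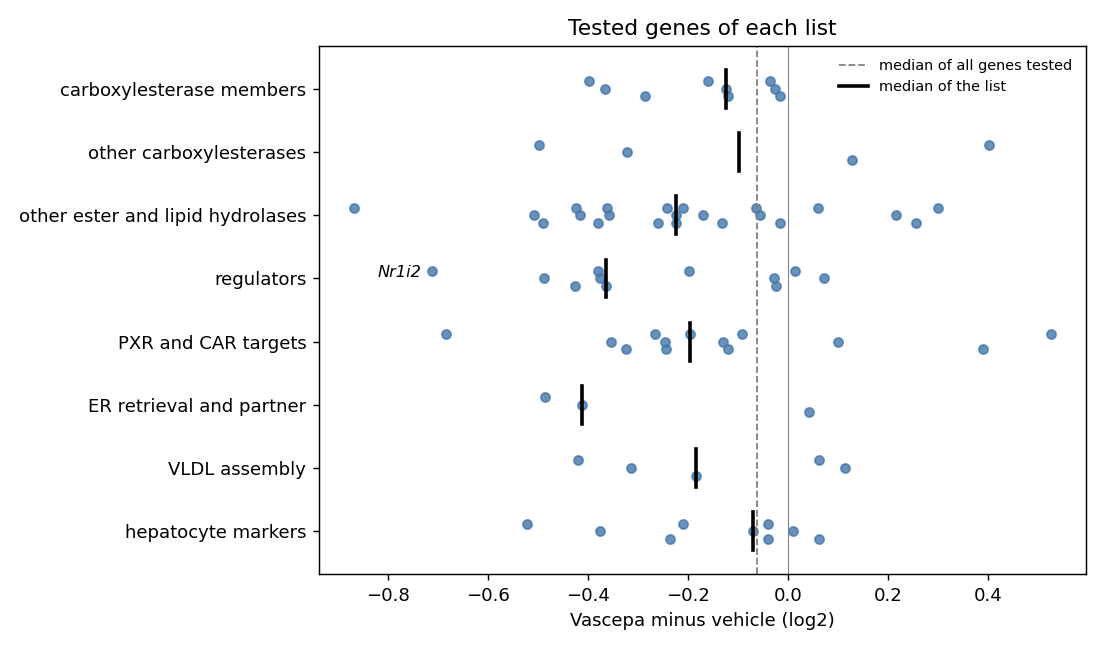
Vascepa minus vehicle (log2) for each tested gene of 8 lists, 1 point a gene, with the list's median as a bar and the median of all genes tested, −0.063, as a dashed line. The members lie between −0.40 and −0.017, and Nr1i2 lies at −0.71 among the regulators.

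The 3 genes outside the family whose array profile was nearest to that of Ces2a were Zfp568, Plbd2 and Ddx39a, with root mean square differences of 0.14, 0.16 and 0.19 over the 6 arrays. Their values on Vascepa replicate 3 were 2.16, 4.10 and 2.78. Each had its lowest value of the 6 there. With 6 arrays and 13493 genes, near matches of this kind say only that the profiles are alike.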

How the data were processed

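The deposited values are log2 levels for each array and transcript cluster, which the authors made with Affymetrix Expression Console and RMA, per the submitters' processing notes. No source used here gives versions or a genome build. RMA compresses differences of dim probes. The deposited arrays did not share 1 distribution, with medians from 2.62 to 2.81, and the number of arrays limits the precision. Of 41345 probes, 23521 had 1 gene symbol in the platform annotation. Those with a mean of 2.65 or more, the median over probes, were kept, taking each gene's brightest probe, which left 13493 genes. Vascepa minus vehicle was fitted with limma 3.58.1 (R 4.3.3, lmFit and eBayes), with Benjamini-Hochberg adjustment over all of them. The procedure was tested on simulated data. Promoter windows were aligned with Biopython 1.88. The members and lists were chosen with earlier results of these data known. The genes named were the members, the 2 with the smallest p in each other list except the cell type markers, which are given as counts and ranges, and the 3 with the profile nearest to the widest-ranging member. Gusb, Nr1i3, Ces2g, Ces2d-ps, Plin1, the Ces and adipocyte genes below the filter and the 3 genes called with the covariate were named after their values were seen. So were Clps, Tnnt3, Apoa1, Tat and the acinar and muscle genes below the filter. Alternatives were other filters, normalization, variance prior, array weights, a replicate block, a small nucleolar RNA covariate, probe choice and left-out arrays.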

Additional observations from a re-analysis of the deposited data

How the results depend on the processing

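No member passed the threshold under any of the 16 alternatives but 1, limma's array weights. Their estimation stopped short of its convergence tolerance and gave a weight of 39.5 to Vascepa replicate 2, against 0.18 to 2.33 for the others. With them 4100 genes were called and 1 member, Ces2a, at 0.58 (limma, adjusted p = 0.0291), and the members' median was 0.011. They also turned Ces1b to 0.18, Ces1d to 0.14, Ces1e to 0.011 and Ces1f to 0.14. The small nucleolar RNA covariate called 3 genes (Cyp2b13, Cyp2b9 and Orm3, all lower after Vascepa) and turned Ces1e to 0.021 and Ces2a to 0.11. It also took Ces1g to −0.24, Ces2e to −0.16, Ces3a to −0.14, Ces1c to −0.050 and Ces1d to −0.22. Quantile normalization applied again turned Ces1b to 0.093, Ces1d to 0.065 and Ces1e to 0.021. The cause of these changes was not tested. With 1 array left out, the median ran from −0.28 (without Vascepa replicate 2) to −0.062 (without Vascepa replicate 3), Ces1b from −0.13 to 0.059, Ces1d from −0.19 to 0.23, Ces1e from −0.15 to 0.058, Ces2a from −0.47 to 0.39, Ces1c from −0.22 to −0.045, Ces1f from −0.28 to −0.033, Ces1g from −0.53 to −0.18, Ces2e from −0.44 to −0.089 and Ces3a from −0.61 to −0.083. No gene was then called, with 141 to 2018 at an unadjusted p under 0.05. Of 144 member differences over the alternatives, 18 turned sign, none of them of Ces1c, Ces1g, Ces2e or Ces3a. The other filters, the variance prior, the replicate block and the probe choices leave every member's difference unchanged. Those alternatives could turn no sign, though the 144 include them. Centring each array on its median shifted the median of all genes by −0.076 and took the members' to −0.20. The replicate block gave 0 calls (438 genes at an unadjusted p under 0.05). Each number occurs once in each group, so the block cannot change the members' median of −0.12. Same-numbered samples deviated from their group means with correlations of 0.61, 0.11 and −0.13, and differently numbered ones with correlations from −0.63 to 0.57. Deviations from a mean of 3 samples depend on each other, so these values cannot show whether the numbers mark pairs. The numbers were not taken as pairs.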
